A study of Mus musculus with 2 samples.

Results

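Chromosome 6 carried 301 of the 4117 Flag-USP21 peaks called in mouse embryonic stem cells (7.31%, exact 95% interval 6.53 to 8.15%). The peaks were chosen by their chromosome alone, so that every called interval on chromosome 6 is a member. To map USP21 on chromatin, the study precipitated Flag-tagged USP21 with an anti-Flag antibody from E14 cells, a feeder-free line of mouse embryonic stem cells kept in medium with the cytokine LIF. According to the methods, the transgene had been inserted at the Rosa26 locus, so the tagged protein was expressed from there. The comparison sample was 1 input library of E14 chromatin made with no antibody, and the ChIP side was also 1 library. With no replicate of either library, the samples could not be tested against each other.

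USP21 is a deubiquitinase, an enzyme that removes ubiquitin from other proteins. Its substrates include the pluripotency factor Nanog, which it protects from degradation, and histone H2A, whose monoubiquitination on K119 is a mark of Polycomb-repressed genes. Chromosome 6 is of interest because it carries the Nanog gene in its distal part, the Hoxa cluster of developmental genes and the Rosa26 locus itself.

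ChIP sequencing finds places where precipitated DNA fragments pile up, and a peak caller asks at each place whether the number of fragments (tags) exceeds a Poisson background. The score of a peak is the caller's value, 10 times the negative log10 of that p-value in the layout of the list. Scores of 40 (the lowest in the list), 50 and 100 thus correspond to p-values of 0.0001, 1e-05 and 1e-10. Below, peaks with a score below 50 are called weak and those with a score of at least 100 strong. All intervals given are 95% intervals and cover counting error across the peaks of this 1 list only, since peaks are not replicates of the experiment. The positions are mm9 per the labels and 1-based. They were not placed on genes or read as sequence, because the genome used here was GRCm38. A list of 32 genes was chosen on chromosome 6, with pluripotency, Hoxa, chromatin-regulator, deubiquitinase, imprinted and Rosa26-neighbouring genes. It includes Nanog and Hoxa10. All 32 lie on chromosome 6 in GRCm38, as their choice required, but no peak was assigned to any of them.

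The peaks were spread unevenly along the chromosome. The first peak was at chr6:4061377-4061566 (score 70.31) and the last at chr6:148768015-148768169 (score 42.85), which together spanned 145 bins of 1 Mb. A scan of these bins for the stretch with the highest Poisson likelihood ratio returned positions 102000001 to 149000000, here called the distal interval. It made up 47 Mb, or 32.4% of the 145 Mb, and held 165 peaks (54.8%). The other 136 peaks lay in the remaining 98 Mb. Peak density was 3.51 per Mb in the distal interval and 1.39 per Mb in the rest, a ratio of 2.53 (interval 2.00 to 3.20). Because the interval was selected on these same counts, the ratio describes the list and is not a test.

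The edge was placed by the scan where the counts differ, so a step there is a product of that choice. The last 5 Mb before the edge held 3 peaks and the first 5 Mb after it held 16. The last peak before the edge, chr6:101049697-101049780, had a score of 110.83, and the first peak inside, chr6:102306037-102306146, had a score of 43.8. Among complete bins of 5 Mb, the 9 inside held between 9 and 31 peaks (median 15), and the 19 outside held between 2 and 11 (median 6). The ranges thus overlapped between 9 and 11 peaks only. In bins of 1 Mb, 2 of 47 inside were empty, as against 21 of 98 outside, and 10 inside held 5 peaks or more, as against 1 outside.

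**Figure D1:**
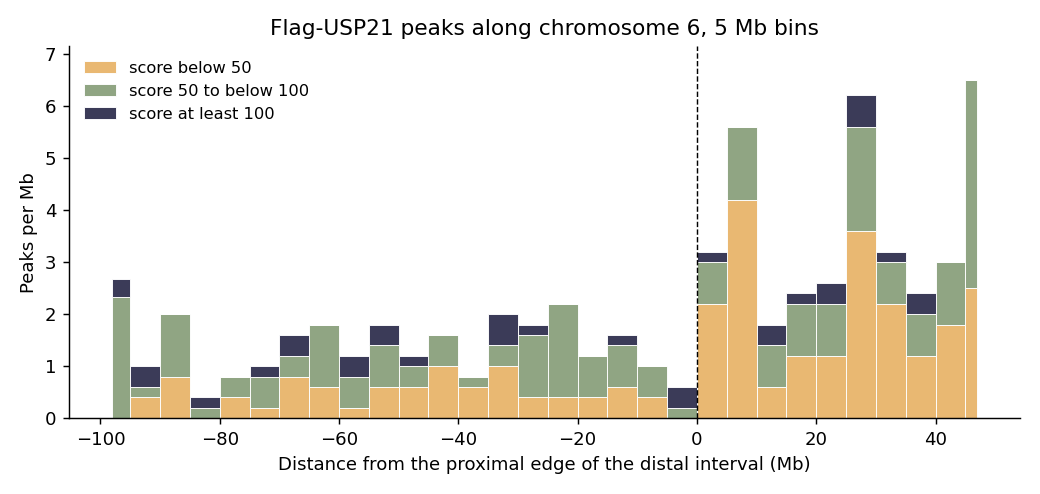
Peaks per Mb in bins of 5 Mb (shorter at both chromosome ends), stacked by score class, against the distance from the proximal edge of the distal interval (dashed line, in Mb). Bins right of the line are taller, mostly through scores below 50, and the pair of tall complete bins there holds 28 and 31 peaks.

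Within the interval the excess was concentrated at some places. The bin from 107000001 to 112000000 held 28 peaks, of which 21 were weak. The bin from 127000001 to 132000000 held 31 peaks, of which 18 were weak. By contrast, the bin between these that started at 112000001 held 9 peaks, inside the range found outside the interval. The shorter last bin, from 147000001 to 149000000, held 13 peaks, of which 5 were weak. Its density was 6.5 per Mb, as against 5.6 and 6.2 per Mb in the bins of 28 and 31 peaks. The densest single Mb, 130000001 to 131000000, held 21 peaks, the highest count of any 1 Mb bin on the 20 chromosomes compared (the autosomes and X). The next densest bin on chromosome 6 held 10, and the median over chromosomes of the highest bin was 5. Such bins were not particular to chromosome 6. The highest bins of chromosomes 14, X, 13 and 12 held 18, 17, 13 and 12 peaks. The 21 peaks spanned 908 kb with a median spacing of 34.7 kb, and their scores ran from 40.21 to 110.83 with a median of 47.54. Without this bin, 144 peaks were left in the interval and the density ratio was 2.26 (1.77 to 2.87).

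The excess in the distal interval differed by score class. Weak peaks occurred at 2.04 per Mb inside (96 peaks) and 0.480 per Mb outside (47 peaks), a ratio of 4.26 (2.97 to 6.17). For peaks with a score from 50 to below 100 the counts were 57 and 70, a ratio of 1.70 (1.18 to 2.44). For strong peaks they were 12 and 19, a ratio of 1.32 (0.583 to 2.86). These ratios too describe an interval selected on the counts of all peaks, most of those inside being weak, and are no test of the classes.

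Accordingly, the composition of the peaks differed between the 2 stretches. In the whole list 47.0% of peaks were weak. On chromosome 6 the share was 47.5% (143 peaks), near that background. It was 58.2% inside the distal interval (50.3 to 65.8%) and 34.6% in the rest (26.6 to 43.2%), a difference of 23.6 percentage points (12.3 to 34.0). The rest of chromosome 6 minus the other chromosomes was -12.4 points (-20.0 to -3.91). Both differences describe stretches divided on the counts of these same peaks and are no test. The other chromosomes were not divided in this way. Whole chromosomes reached shares like that of the interval, with 65.0% on chromosome 14, 63.3% on chromosome 1 and 58.6% on chromosome 8. The share of chromosome 6 therefore averaged a stretch above the background and a stretch below it. Strong peaks made up 13.3% of the whole list, 10.3% on chromosome 6, 7.27% in the interval (12 peaks) and 19 of 136 peaks in the rest. For strong peaks the distal interval minus the rest was -6.70 points (-14.2 to 0.267), likewise a description and no test.

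Median scores followed the same order. The median was 48.17 in the distal interval (46.14 to 49.95) and 57.67 in the rest (55.14 to 65.09). For chromosome 6 as a whole it was 51.18 (49.3 to 54.71), with quartiles of 44.45 and 68.08. For the other chromosomes it was 51.24 (50.61 to 51.72). The distal interval was selected on peak counts, so the contrast of its median with that of the rest is no test. The 6 lowest scores of the chromosome, from 40.18 to 40.46, all lay in the distal interval. These are the members just above the limit of the list, and peaks under the limit are not part of it.

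**Figure D2:**
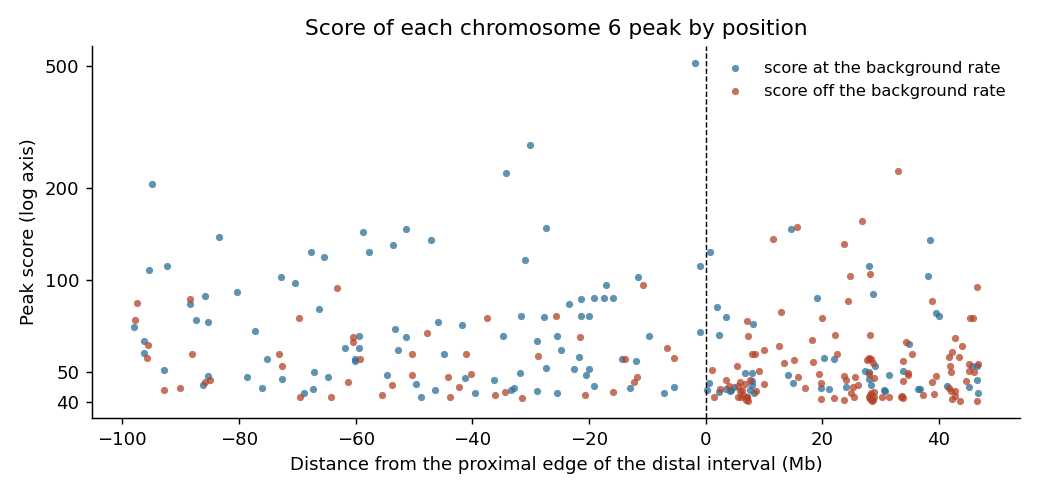
Score of each of the 301 peaks (log axis) against its distance from the proximal edge of the distal interval (dashed line, in Mb), coloured by whether the score lies at the background rate described in the text. The dense cloud of scores between 40 and 50 lies right of the line, and the highest score, 511.87, lies just left of it.

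The highest scores lay on both sides of the edge. Of the 10 highest scores on the chromosome, 4 lay inside the interval and 6 outside. The highest, 511.87, belonged to a narrow peak of 94 bp at chr6:100168364-100168457, which ranked 25th in the whole list. It stood at the end of the longest stretch of the chromosome without a peak, 3.54 Mb, and had no neighbour within 10 kb. The second was chr6:71967267-71967433 (167 bp, score 276.66), and the next, chr6:134993286-134993363 (78 bp, score 227.51), was the highest in the distal interval. They were followed by chr6:67781047-67781214 (score 223.77) and chr6:7156870-7157024 (score 206.28), both outside. The next was chr6:128893134-128893240, inside, with a score of 155.98. The remaining 4 had scores between 146.32 and 149.05 and were at chr6:117743321-117743650, chr6:74629488-74629559, chr6:116728850-116729112 and chr6:50705856-50706033. None of the 10 had another peak within 10 kb.

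Median widths were similar in both stretches, whereas the share of peaks under 100 bp differed. The median width was 145 bp on chromosome 6 (143 to 147), 146 bp in the distal interval (143 to 150), 143.5 bp in the rest (135 to 147) and 145 bp on the other chromosomes. The range was 60 to 419 bp. The 5 widest peaks all lay in the distal interval. They included chr6:113553554-113553972 (419 bp, score 136.16) and chr6:140448957-140449290 (334 bp, score 135.63), whereas chr6:144770531-144770832 (302 bp) had a score of only 64.89. Peaks over 200 bp made up 8.91% of the whole list (367 peaks). Their share was 8.48% inside (14 peaks, 4.72 to 13.8%), near that background, and 5.88% in the rest (8 peaks, 2.57 to 11.3%). These intervals overlap widely. In the whole list 12.8% of peaks were under 100 bp. They were found 10 times inside (6.06%, 2.94 to 10.9%) and 23 times outside (16.9%, 11.0 to 24.3%). With the interval selected on peak counts, these shares too are a description and no test. Across the 301 peaks, which share 1 library, score and width had a Spearman rho of -0.09 and a Pearson r of 0.01. In the distal interval these values were 0.02 and 0.24, and in the rest -0.16 and -0.11. By rank, wider peaks thus did not have higher scores in general.

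Next, the spacing of the peaks was measured between midpoints. The median distance to the next peak was 304 kb on chromosome 6 (220 to 379), 170 kb within the distal interval (135 to 218) and 585 kb within the rest (419 to 693). Gaps over 2 Mb occurred 9 times, all in the rest. The interval was selected on peak counts, which favours short spacing inside, so these medians and gaps are a description and no test. The 3 longest stretches with no peak ran from 96624931 to 100168364 (3.54 Mb), from 18612064 to 21621444 (3.01 Mb) and from 92224520 to 94884529 (2.66 Mb). The longest of these and the shortest both lay within 10 Mb of the proximal edge of the interval, so sparse and dense stretches adjoined there.

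**Figure D3:**
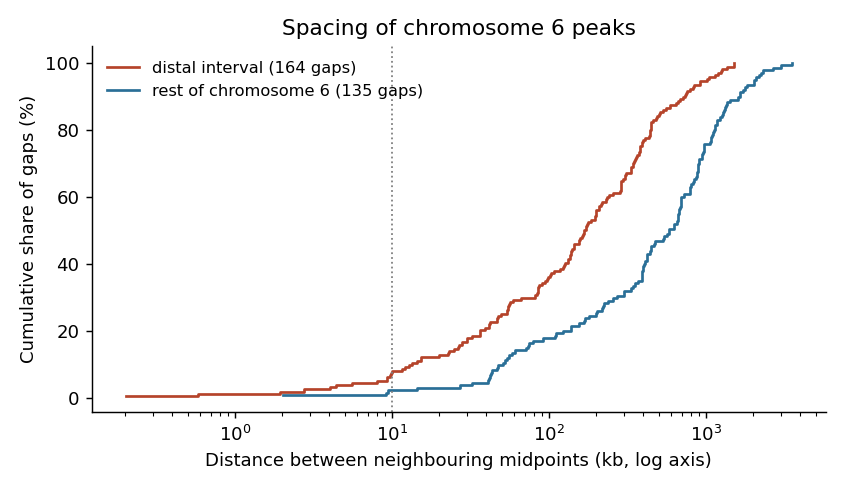
Cumulative share of the distances between neighbouring midpoints (kb, log axis) for 164 gaps within the distal interval and 135 within the rest of chromosome 6, with 10 kb marked by a dotted line. The curve of the distal interval lies left of the other, with medians of 170 and 585 kb. This is no test, since the interval was selected on peak counts.

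Close neighbours were uncommon. A peak with another midpoint within 10 kb made up 8.82% of the whole list and 10.3% of chromosome 6 (31 peaks, 7.11 to 14.3%). Of these, 25 were inside the distal interval (15.2% of its peaks) and 6 in the rest (4.41%), a difference of 10.7 points (3.98 to 17.4). Selection of the interval on peak counts favours close neighbours inside, so this difference is no test. The 31 peaks formed 15 clusters, 14 of them pairs and 1 of 3 peaks. The closest pair, at chr6:147102055-147102434, had midpoints 201 bp apart. It was followed by the pair at chr6:130018650-130019461 (581.5 bp apart) and the pair at chr6:130662299-130664391 (1951.5 bp apart), both of them in the densest Mb. That Mb alone held 13 of the 31 peaks. Without it, 12 of 144 peaks in the interval had a close neighbour (8.33%, 4.38 to 14.1%), which is near the background, so much of the difference in neighbours lay in this 1 Mb.

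The list gives no tag counts, but the scores carry information on the background each peak was scored against. MACS scores a peak against the largest of a genome-wide mean and local means. A single rate of 8.13 tags per kb, multiplied by the width of the peak (by 104 bp for narrower peaks), gave Poisson tails that matched the scores of 53.7% of the whole list to within 0.015. Such a peak is called here at the background rate. The scores of the others matched no tail at that rate.

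On chromosome 6, 142 peaks were at the background rate (47.2%, 41.4 to 53.0%). The share was 30.9% in the distal interval (51 of 165, 24.0 to 38.6%) and 66.9% in the rest (91 of 136, 58.3 to 74.7%), a difference of -36.0 points (-45.8 to -24.9). This difference describes an interval selected on peak counts and is no test. Over the 20 chromosomes the share ranged from 19.4% on chromosome 14 to 73.8% on chromosome 10, with a median of 63.5%, and 15 chromosomes had a higher share than chromosome 6. Taken alone, the rest of chromosome 6 was close to the median chromosome.

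The excess of peaks in the distal interval lay mostly in those off the background rate. Peaks at the rate occurred at 1.09 per Mb inside and 0.929 per Mb outside, a ratio of 1.17 (0.813 to 1.66). Peaks off the rate occurred at 2.43 per Mb inside (114 peaks) and 0.459 per Mb outside (45 peaks), a ratio of 5.28 (3.71 to 7.63). Without the densest Mb these ratios were 1.08 (0.738 to 1.55) and 4.64 (3.23 to 6.76). These ratios describe an interval selected on the counts of all peaks, most of those inside being off the rate, and are no test. For comparison, the median over the 20 chromosomes was 0.803 per Mb for peaks at the rate and 0.442 per Mb for peaks off it. The distal interval was not alone in its density of peaks off the rate, since chromosome 14 as a whole had 2.80 per Mb, and chromosomes 1, 8 and 11 had 1.47, 1.27 and 1.20 per Mb. What set scores off the rate was not tested, since tag counts and control reads were not analysed here.

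**Figure D4:**
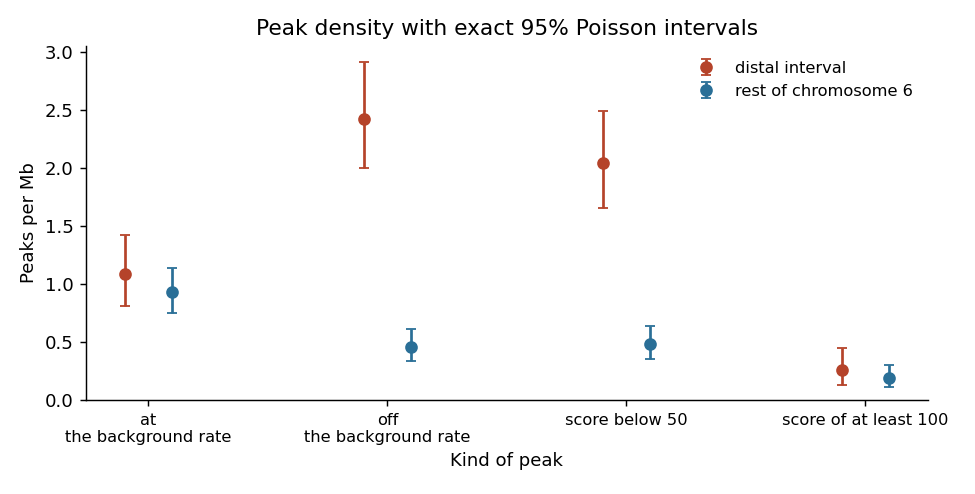
Peaks per Mb with exact 95% Poisson intervals in the distal interval and in the rest of chromosome 6, for peaks at and off the background rate, weak peaks and strong peaks. The intervals of the 2 stretches overlap for peaks at the rate (1.09 and 0.929 per Mb) and for strong peaks, and are apart for peaks off the rate (2.43 and 0.459 per Mb) and weak peaks. The distal interval was selected on the counts of all peaks, so this separation is no test.

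Score class and background rate were not the same property. Over the whole list the share at the rate was 44.4% for weak, 61.2% for middle and 64.2% for strong peaks. In the distal interval the share at the rate was close to 30.2% in the lower classes, with 29 of 96 weak peaks, 17 of 57 middle peaks (29.8%) and 5 of 12 strong peaks (41.7%, 15.2 to 72.3%). In the rest it was 26 of 47 (55.3%), 46 of 70 (65.7%) and 19 of 19 (100%, 82.4 to 100%). Every strong peak outside the interval, the peak of score 511.87 included, was thus at the rate, as against 63.4% of strong peaks on other chromosomes. Weak peaks at the rate were denser inside as well, with 29 against 26 peaks, a ratio of 2.33 (1.32 to 4.11). Weak peaks off the rate had a ratio of 6.65 (4.02 to 11.4). The stretches were divided on the counts of all peaks, and the other chromosomes were not divided. These shares and ratios are therefore no test.

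Along the interval the share at the rate was not uniform. It was 11 of 16 in the first 5 Mb, within the range outside the interval, and 7 of 28 in the next 5 Mb. The lowest share was 1 of 15 in the bin from 142000001 to 147000000. The densest Mb had 5 of 21.

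Where a score matched a tail, the tail gives a number of tags. Among peaks at the rate, 30 of 51 in the distal interval (58.8%) and 26 of 91 in the rest (28.6%) scored as a tail beyond 7 tags would, and the medians were tails beyond 7 and beyond 9 tags. The largest were beyond 22 tags inside and beyond 39 tags outside, the latter being the peak of score 511.87. Of the 159 peaks off the rate, 23 matched tails of a fixed mean of 1.69 tags whatever their width (107 to 208 bp), 17 of them inside and 6 outside. Those 23 made up 7.64% of chromosome 6 peaks, near the 7.63% of the whole list (314 peaks). That mean was itself fitted to the off-rate scores of the whole list, for the most matches. The 23 included the 7 peaks that shared the score 41.55, all inside the interval, and the 7 that shared the score 57.52, 4 of them inside. The remaining 136 peaks off the rate, 97 inside and 39 outside, matched neither.

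**Figure D5:**
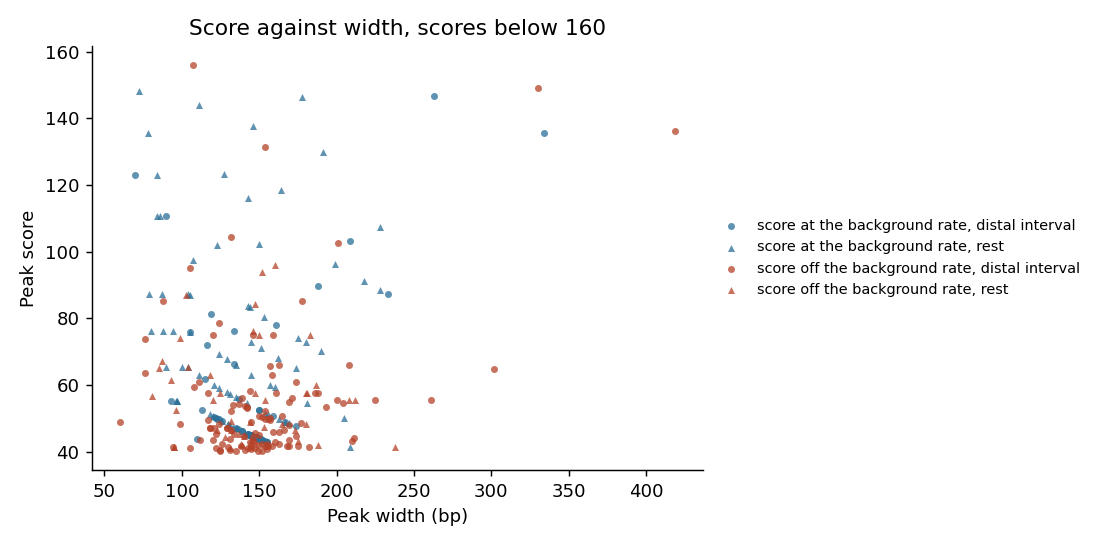
Score against width (bp) for chromosome 6 peaks with a score below 160, with circles for the distal interval and triangles for the rest, coloured by whether the score lies at the background rate. Peaks at the rate fall on lines that descend with width, the most crowded being the tail beyond 7 tags (56 peaks), and peaks off the rate lie between and below these lines.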

How the data were processed

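The ChIP and input libraries (1 each) were grouped by title. Per the labels, CASAVA 1.4, Bowtie 0.12.7 and mm9 were used. The methods name mm10, a later MACS release in broad mode and an IgG control, whereas the list carried MACS14 identifiers, so the control behind it is not given in the sources used here. The authors deposited 1 score per peak (10 times the negative log10 p-value), with no counts, so depth is unknown. In all, 20 peaks on 7 chromosomes ended past the GRCm38 end of their chromosome, none of them on chromosome 6.

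Analyses used Python 3.11.15, numpy 2.4.6, scipy 1.17.1, pandas 2.3.3, statsmodels 0.14.6 and matplotlib 3.10.9. Intervals were exact Clopper-Pearson (shares), order-statistic (medians), Newcombe (differences) and conditional binomial (ratios). Candidates for the distal interval were 5 Mb or longer and took up no more than 80% of the bins. The rate was fitted on the wider, and its smallest window on the narrowest, peaks of the whole list, for the most matched scores. Coarser search steps, run first, had the same rate but stopped at windows that matched 2.79% and 33.9% of the list. The steps were refined until 53.7% matched, a value already known from an earlier analysis of these data. The functions were tested on simulated lists, and that test had not detected the coarse steps until its true values were moved off the search grid. Peaks named are the 10 of highest score, the 5 widest, the 3 closest pairs, the 3 longest gaps, the lowest scores and the first and last. Members, interval, lists and alternatives were chosen with earlier results of these data known. Stricter scores, other interval bounds, clusters, neighbour distances, tolerances and search steps were tried.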

Additional observations from a re-analysis of the deposited data

How the results depend on the processing

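Of 34 alternatives, 15 left the value within its interval and 19 moved it, and none was a test; 6 were chosen after seeing the data. With scores of at least 50 and of at least 100, 158 and 31 peaks remained on chromosome 6, of which 69 and 12 were in the distal interval. The density ratio was then 1.62 and 1.32, and the median score 66.12 and 131.53. The share with a close neighbour was 5.06% and 0% (0 of 31, of which 3 peaks would be 9.68%). The share at the background rate was 55.1% and 77.4%. The median width was 142.5 bp at scores of at least 50. Splitting the chromosome at its midpoint, distal against proximal, gave a density ratio of 1.98, and the interval narrowed by 5 Mb at each end 2.07. The neighbour share was 4.65% at 5 kb, 30.2% at 50 kb and 6.43% without the densest Mb. The difference in weak peaks stayed between 18.0 and 25.4 points. Tolerances of 0.005 and 0.05 gave the same share at the background rate. With coarser search steps that share was 30.2% (21.2% inside, 41.2% outside), and with an unbounded window as well 1.66% (1.21% and 2.21%). The size of these shares thus depended on the search, and the last pair rests on too few peaks to give a direction. Promoter distance, GC content and repeats were not run, since a genome of the list's build was not used here. No paired analysis was possible because each group had 1 library. Depth is unknown, and whether a second library would give the same peaks was not tested.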
